A study of Mus musculus with 9 samples.

Results

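The 10 genes followed here belong to the jejunal stem cell niche. They are the secreted signals Rspo3, Wnt5a, Wnt4, Wnt2b, Bmp4 and Bmp5, the secreted antagonists Sfrp1 and Grem1, and the stromal cell markers Pdgfra and Foxl1. They were taken by name as stromal ligands, antagonists and markers, 10 of the 31685 genes measured. The rule did not use their values, but earlier results of these data were known when they were chosen. The data were RNA-seq libraries of jejunum from 9 wild-type male C57BL/6J mice aged 6 to 8 weeks, with 3 mice in each of 3 groups. Mice of the TAI group received 1 dose of 12 Gy X-rays to the abdomen (total abdominal irradiation, at 75 cGy per min, the rest of the body shielded) and PBS. Mice of the TAI/IVIg group received the same irradiation and 500 mg/kg of IVIg, a preparation of pooled human IgG, into a vein within 1 h, with repeats planned every 3 days. Control mice were not irradiated, and the jejunum was collected on day 3. The labels number the mice of each group without saying what a shared number means, and p-values measure the spread between these mice only.

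The stem cells at the base of an intestinal crypt are kept dividing by Wnt proteins, and R-spondins strengthen that signal by stabilising the Wnt receptors. Much of both comes from fibroblast-like cells under the epithelium. BMP proteins act the other way, towards differentiation along the villus, and BMP antagonists made by stroma around the crypt base hold them off where the stem cells lie.

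The libraries held 16284386 to 18244535 reads in genes. The levels are FPKM, reads scaled to exon length and to the reads of the library, so that genes of different length can be set side by side. Of the 10 genes, 9 reached 1 FPKM in at least 3 mice and were tested with limma on log2(FPKM + 1), among 13056 genes in all. Foxl1 did not, and is given by its values. The fold changes below are on that scale, which understates the change of genes near 1 FPKM. The labels call the samples jejunal epithelial tissue. Epithelial markers were the most abundant of the marker lists (9 genes, summed level 12550 to 34030 FPKM), led by Fabp2, Krt20 and Krt8, but smooth muscle markers (10 genes, led by Acta2, Actg2 and Myh11) summed to between 140 and 876 FPKM, so the samples also held the wall of the gut. In such bulk tissue, fewer cells of a type and less RNA per cell cannot be told apart.

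Grem1 (gremlin 1, a secreted BMP antagonist) stood above all others. Its gene lies on chromosome 2, from 113746164 to 113758646 on the minus strand (GRCm38). The 3 control mice had 17.95, 24.98 and 37.6 FPKM, the TAI mice 59.7, 75.3 and 62.4, and the TAI/IVIg mice 76.9, 26.1 and 12.9. All TAI mice lay above all controls, while the TAI/IVIg mice ran from above every other mouse to below every other mouse. The mean was 2.45 times higher in TAI (65.8 ± 8.32 FPKM, SD, n = 3) than in control (26.8 ± 9.93, n = 3), a log2 fold change of 1.32 with a standard error of 0.54 and an adjusted p of 0.0852 by limma. That fit pools the spread of all 3 groups. With the 6 mice of the 2 groups alone the adjusted p was 0.00959, leaving out TAI/IVIg mouse 1 it was 0.0139, leaving out mouse 3 of that group it was 0.0357, and with the library medians set equal it was 0.0451. Grem1 was also called after quantile normalization. The remaining settings did not call it, among them both limma voom fits. Over the 11 alternative settings that left out no mouse, the adjusted p ran from 0.00959 to 0.178.

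In each group Grem1 was the most abundant of the 10, and its range did not overlap that of the next gene. Pdgfra came next in control and TAI, followed by Bmp4 and Sfrp1. Each neighbouring pair after Grem1 had overlapping ranges, other than Sfrp1 and Wnt5a in TAI. Wnt2b and Foxl1 were the lowest 2 in every group, with means between 0.492 and 1.22 FPKM.

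**Figure D1:**
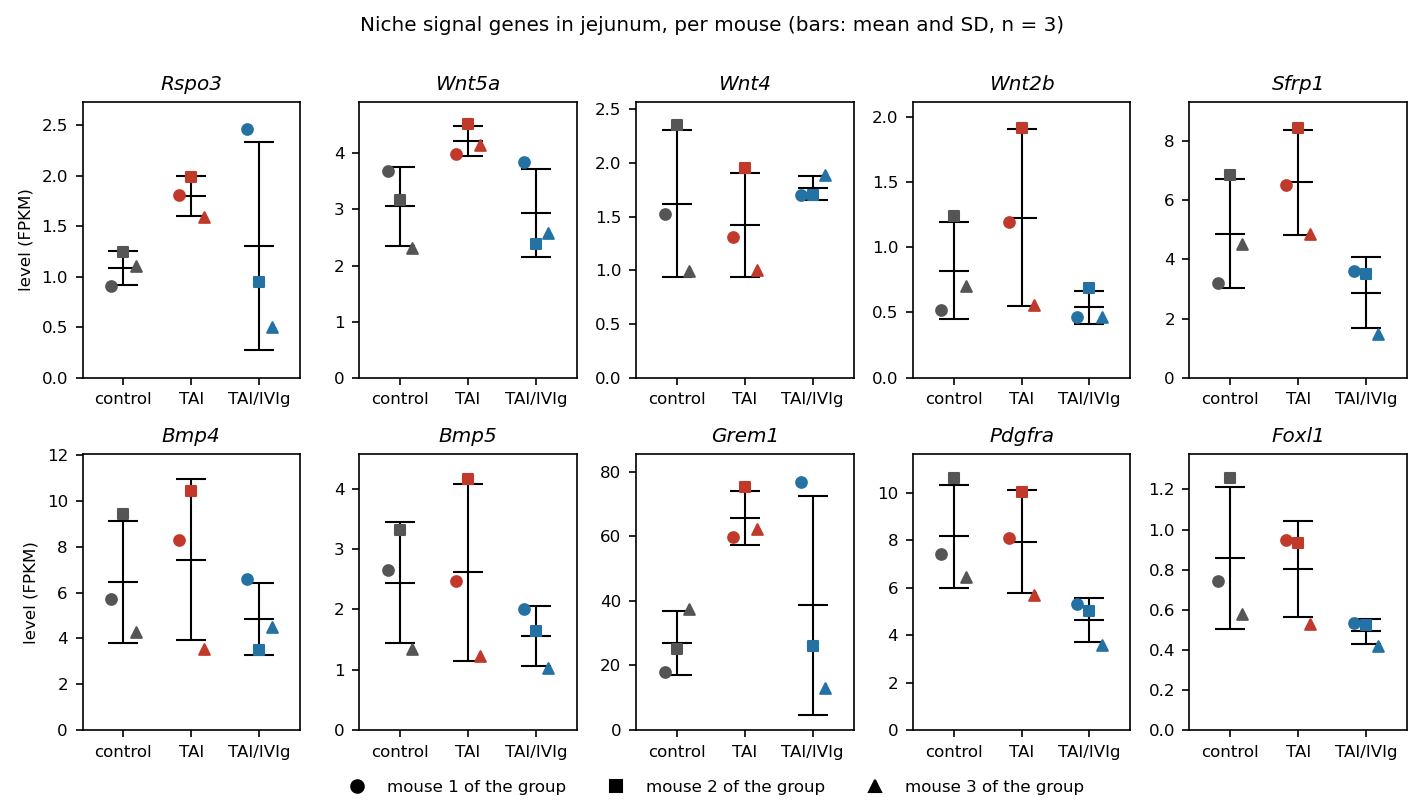
Level of each of the 10 genes in FPKM (vertical axes, each from 0, with a scale of its own) in control, TAI and TAI/IVIg mice. Points are mice, shapes give the mouse number, and bars give the mean and SD of 3 mice. Grem1 was between 59.7 and 75.3 FPKM in TAI, above every control, and spread from 12.9 to 76.9 FPKM in TAI/IVIg, while Pdgfra was below every control and every TAI mouse in all 3 TAI/IVIg mice.

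The stretches of 250 bases just before the RefSeq start of 4 genes (GRCm38.p6) are shown, those of Grem1, with the greatest fold change after TAI, of Pdgfra, the only gene past the threshold in a comparison, and of Bmp4 and Bmp5, which followed each other between mice. They are read in the direction of the gene, and capitals mark matches to the motifs named after them. Of the 10 genes, 6 had such a window in the RefSeq table, the others with one being Wnt4 and Wnt2b. They lie at chr2:113758649-113758898 on the minus strand (Grem1), chr5:75152001-75152250 on the plus strand (Pdgfra), chr14:46390670-46390919 on the minus strand (Bmp4) and chr9:75775115-75775364 on the plus strand (Bmp5).
Grem1: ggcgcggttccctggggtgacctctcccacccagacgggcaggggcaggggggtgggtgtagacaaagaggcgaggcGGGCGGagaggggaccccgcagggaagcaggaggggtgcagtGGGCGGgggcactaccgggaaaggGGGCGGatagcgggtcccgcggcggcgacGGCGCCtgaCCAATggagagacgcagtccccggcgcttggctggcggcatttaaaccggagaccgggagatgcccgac
Pdgfra: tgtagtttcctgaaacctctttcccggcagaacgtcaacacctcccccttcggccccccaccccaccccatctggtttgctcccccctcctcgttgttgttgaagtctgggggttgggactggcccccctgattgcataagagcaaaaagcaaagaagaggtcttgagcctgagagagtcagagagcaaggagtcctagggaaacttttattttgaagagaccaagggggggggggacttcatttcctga
Bmp4: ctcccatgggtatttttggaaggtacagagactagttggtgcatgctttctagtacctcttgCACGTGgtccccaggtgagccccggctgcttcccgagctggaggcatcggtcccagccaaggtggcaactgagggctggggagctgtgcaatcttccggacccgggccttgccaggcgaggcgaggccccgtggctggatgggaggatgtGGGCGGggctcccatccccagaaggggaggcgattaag
Bmp5: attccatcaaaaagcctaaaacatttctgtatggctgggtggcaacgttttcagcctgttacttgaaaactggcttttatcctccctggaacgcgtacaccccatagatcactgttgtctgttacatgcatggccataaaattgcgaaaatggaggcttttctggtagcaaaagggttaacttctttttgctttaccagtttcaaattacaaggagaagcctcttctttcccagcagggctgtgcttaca

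Both strands were searched for 10 short motifs. The general promoter elements were the TATA box with the letters TATAAA, the GC box with the letters GGGCGG and the CCAAT box. The motifs of factor families were an E-box written as CACGTG, the forkhead core written as TGTTTAC, the Tcf and Lef core written as CTTTGAT, the Gli site written as GACCACCCA, the cyclic AMP element written as TGACGTCA, the AP-1 site written as TGACTCA, and the Smad site of GC-rich letters written as GGCGCC. No motif of the 10 holds another, and a palindrome was counted once. The Grem1 window held 3 GC boxes, 1 CCAAT box and 1 GC-rich Smad motif. That of Bmp4 held 1 GC box and 1 E-box, and those of Pdgfra and Bmp5 held no match. Among 32851 windows of that length, 32.7% held a GC box, 33.8% a CCAAT box, 9.59% the GC-rich Smad motif and 6.02% the E-box. The Grem1 window was 72.0% G or C with 24 CpG, against 63.2% and 11 for Bmp4, 54.4% and 4 for Pdgfra, 42.8% and 4 for Bmp5, and medians of 52.4% and 6 over all windows. A match is a run of letters, and no binding was measured.

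The first comparison asked how these genes differed on day 3 after irradiation. No gene of the 9 passed the threshold of an adjusted p of 0.05 in limma, in either direction. Over all genes tested 8.81% were called higher and 26.1% lower in TAI. At an unadjusted p under 0.05 Grem1 alone passed, as a higher gene, where 11.9% of all genes were higher and 34.3% lower. Limma voom on the recovered reads called none with total library sizes and Wnt5a alone with median-ratio sizes (adjusted p 0.048). Of the 9, 7 had a positive fold change, with a median of 0.26 on the log2 scale, beside a median of -0.24 over all genes. Setting the library medians equal called 2159 genes higher and 1823 lower, against 1150 and 3411, and turned the 2 negative ones, Wnt4 (-0.10 to 0.19) and Pdgfra (-0.04 to 0.25), positive. Grem1, Wnt5a and Rspo3 were higher in every TAI mouse than in every control, 3 of 9, where 15.1% of all tested genes were higher without overlap, and none was lower without overlap, where 38% were.

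Rspo3 (R-spondin 3; chromosome 10, 29452416 to 29535867, minus strand) binds Lgr receptors and keeps Wnt receptors on the cell surface. It had 0.913, 1.25 and 1.103 FPKM in the control mice, 1.81, 1.99 and 1.596 in the TAI mice and 2.47, 0.952 and 0.502 in the TAI/IVIg mice. The TAI mice lay above the controls, and the TAI/IVIg mice held both the highest and the lowest value of the 9. TAI was 1.66 times control by the means, a log2 fold change of 0.42 ± 0.27 (standard error; adjusted p 0.248), from between 49 and 68 reads in a control library and between 90 and 100 in a TAI library. Of the other R-spondins, Rspo1, Rspo2 and Rspo4 stayed under 1 FPKM in every mouse.

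Wnt5a (chromosome 14, 28504750 to 28527448, plus strand) encodes a Wnt protein that mostly acts without β-catenin. It had 3.69, 3.17 and 2.304 FPKM in control, 3.98, 4.51 and 4.15 in TAI and 3.84, 2.39 and 2.58 in TAI/IVIg mice. The TAI mice were close to each other, above all controls and all TAI/IVIg mice. The fold change of TAI against control was 0.38 ± 0.18 (adjusted p 0.139), and that of TAI/IVIg against TAI was -0.42 ± 0.18 (adjusted p 0.382). With the fibroblast markers set equal in every mouse, the first was 0.04 and the second turned to 0.38. The medians over all genes were then -0.58 and 0.67.

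Wnt4 (chromosome 4, 137277489 to 137299726, plus strand) and Wnt2b (chromosome 3, 104945272 to 104961921, minus strand) are further Wnt ligands, and Wnt2b acts through β-catenin. Wnt4 had 1.52, 2.35 and 0.992 FPKM in control, 1.31, 1.95 and 1.01 in TAI and 1.697, 1.698 and 1.89 in TAI/IVIg mice. The TAI/IVIg mice lay within the range of the controls and close together, and all 3 groups overlapped. Wnt2b had 0.521, 1.24 and 0.701 FPKM in control, 1.195, 1.92 and 0.561 in TAI and 0.463, 0.687 and 0.468 in TAI/IVIg mice. Its TAI mice spread over more than the range of the controls, and the groups overlapped. Wnt4 was the one gene of the 9 with a positive fold change in TAI/IVIg against TAI, 0.21 ± 0.21 (adjusted p 0.668), and that of Wnt2b was -0.49 ± 0.24 (adjusted p 0.414). Of the 18 Wnt genes in the table these 3 were tested. Wnt6 was the only other one to reach 1 FPKM, in TAI/IVIg mouse 2 (1.05 FPKM), and it was singled out after its values were seen.

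Sfrp1 (secreted frizzled-related protein 1, which binds Wnt proteins; chromosome 8, 23411502 to 23449632, plus strand) had 3.21, 6.86 and 4.53 FPKM in control, 6.501, 8.44 and 4.88 in TAI and 3.63, 3.51 and 1.49 in TAI/IVIg mice. The highest TAI/IVIg mouse lay under the lowest TAI mouse, and the lowest of the 9 was TAI/IVIg mouse 3. The log2 fold change was 0.39 ± 0.31 in TAI against control (adjusted p 0.345), -0.61 ± 0.31 in TAI/IVIg against control (adjusted p 0.136) and -1.001 ± 0.31 in TAI/IVIg against TAI (adjusted p 0.353). Without TAI/IVIg mouse 3 the last was -0.71.

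Bmp4 (chromosome 14, 46383520 to 46390669, minus strand) and Bmp5 (chromosome 9, 75775364 to 75900310, plus strand) encode BMP ligands. Bmp4 had 5.71, 9.44 and 4.27 FPKM in control, 8.31, 10.5 and 3.56 in TAI and 6.58, 3.48 and 4.51 in TAI/IVIg mice. Bmp5 had 2.65, 3.32 and 1.35 FPKM in control, 2.47, 4.15 and 1.23 in TAI and 2.003, 1.64 and 1.02 in TAI/IVIg mice. Both were high in mouse 2 and low in mouse 3 of the control and of the TAI group, and the groups overlapped for both genes. The fold changes of TAI against control were 0.13 ± 0.38 for Bmp4 (95% interval -0.72 to 0.99, adjusted p 0.8) and 0.03 ± 0.33 for Bmp5 (-0.72 to 0.79, adjusted p 0.943). Intervals this wide do not show that the BMP ligands were level. With the fibroblast markers set equal, both signs turned (-0.21 and -0.31), and the median over all genes was then -0.58. The Bmp5 exons share 1878 of 4025 bases with Gm26903 on the opposite strand, for which no library held more than 2 reads.

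Several ratios between these genes were worked out, all chosen after the values were seen. The first was that of the antagonist Grem1 to the ligand Bmp4. It was 3.14, 2.65 and 8.81 in control, 7.18, 7.19 and 17.5 in TAI, and 11.7, 7.48 and 2.86 in TAI/IVIg mice. Control mouse 3 lay above 2 of the TAI mice (two-sided exact permutation test without pairing, p = 0.3). Whether mice of the same number are pairs is not known. If they are taken as pairs, the ratio in TAI was 2.28, 2.72 and 1.99 times that in control, upward in 3 of 3 pairs (two-sided exact sign-flip permutation test, p = 0.25, the smallest that 3 pairs can give). Of Grem1 to Pdgfra, the ratio was 2.42, 2.36 and 5.83 in control, 7.38, 7.51 and 10.9 in TAI, and 14.5, 5.21 and 3.59 in TAI/IVIg mice. Here every TAI mouse lay above every control (exact permutation p = 0.1, the smallest that 3 against 3 mice can give). In the other ratios worked out, Sfrp1 to Wnt5a, Wnt5a to Bmp4 and Bmp4 to Bmp5, TAI and control mice overlapped.

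Pdgfra (the PDGF receptor of fibroblasts and villus tip telocytes; chromosome 5, 75152292 to 75198215, plus strand) had 7.42, 10.6 and 6.44 FPKM in control, 8.09, 10.02 and 5.703 in TAI and 5.31, 4.996 and 3.59 in TAI/IVIg mice. The control and TAI mice covered much the same range, and the TAI/IVIg mice lay under both. The means were 8.15 ± 2.17, 7.94 ± 2.16 and 4.63 ± 0.917 FPKM (SD, n = 3 each). Foxl1 (a transcription factor of subepithelial telocytes; chromosome 8, 121127940 to 121130644, plus strand) had 0.745, 1.26 and 0.577 FPKM in control, 0.949, 0.931 and 0.527 in TAI and 0.535, 0.522 and 0.419 in TAI/IVIg mice. Its TAI/IVIg mice were below every control, on 19 to 26 reads against 27 to 60, and overlapped the TAI mice.

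The second comparison set TAI/IVIg against control. It uses the same control mice as the first. Pdgfra fell by 0.69 on the log2 scale (standard error 0.23, adjusted p 0.0387) and was the only gene of the 9 called. Over all genes tested 37.4% were called lower and 9.06% higher, so 1 of 9 lower is no more than the whole table shows. The other 8 had fold changes between -0.61 (Sfrp1) and 0.21 (Grem1), with 6 of the 9 negative and a median of -0.23, beside -0.39 over all genes. With the library medians set equal, 2880 genes were called higher and 1894 lower, against 1183 and 4880, and Wnt5a, Wnt2b, Bmp4 and Bmp5 turned positive (0.45, 0.27, 0.16 and 0.09). Pdgfra was also the only tested gene lower without overlap, where 44.3% of all tested genes were.

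The call of Pdgfra was lost when 1 mouse was left out in 5 cases: control mouse 1 (adjusted p 0.0608), control mouse 2 (0.125), TAI mouse 1 (0.0579), TAI/IVIg mouse 2 (0.0555) or TAI/IVIg mouse 3 (0.127). The fold change stayed between -0.83 and -0.51 in the 9 such fits. With the library medians set equal it was -0.20 (adjusted p 0.557), and with the fibroblast markers set equal it was -0.23 (adjusted p 0.659). For Grem1 the direction in this comparison turned when TAI/IVIg mouse 1 (-0.46) or control mouse 1 (-0.0387) was left out, and leaving out TAI/IVIg mouse 3 gave 0.78. For Rspo3 the same 3 values were -0.28, -0.0047 and 0.32.

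**Figure D2:**
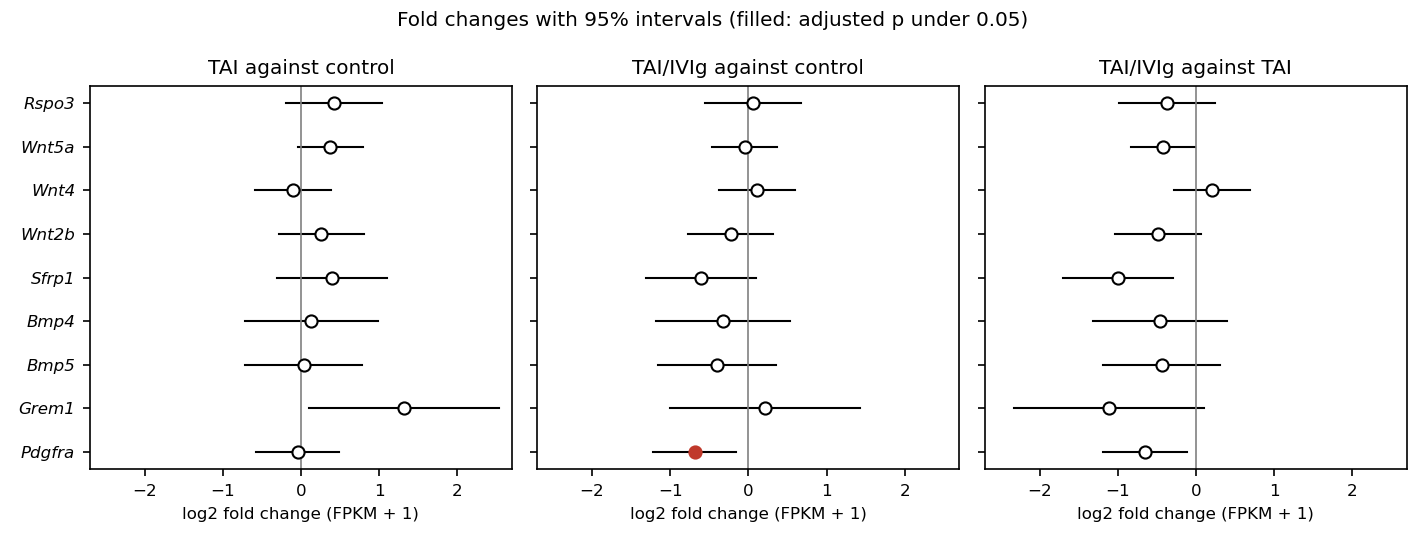
Log2 fold change of the 9 tested genes (points, on log2(FPKM + 1)) with 95% intervals (lines) in the 3 comparisons, from limma over all 9 mice. Pdgfra in TAI/IVIg against control is the one filled point, an adjusted p of 0.0387, and 8 of 9 points lie below 0 in TAI/IVIg against TAI.

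The third comparison, TAI/IVIg against TAI, bears on the treatment itself and shares its mice with the other two. No gene of the 9 was called by limma or by either limma voom fit, and neither was any of the 13056 genes (0% higher, 0% lower). With no adjustment, Sfrp1, Pdgfra and Wnt5a were lower at a p under 0.05 and none was higher, where 11.2% of all genes were lower and 1.64% higher. The same 3 were lower without overlap and none was higher, where 16.1% and 3.09% of all genes were. Of the 9, 8 had a negative fold change and the median was -0.46, beside -0.13 over all genes. These signs were the same with the library medians set equal, but with the fibroblast markers set equal 6 of the 8 turned positive, all but Grem1 and Sfrp1. The 6 were then between 0.15 and 0.43, below the median of 0.67 over all genes in that setting. In the main fit, the fold change of Pdgfra was -0.65 ± 0.23 (adjusted p 0.36), of Grem1 -1.11 ± 0.54 (adjusted p 0.409), of Rspo3 -0.37 ± 0.27 (adjusted p 0.544), of Bmp4 -0.46 ± 0.38 (adjusted p 0.584) and of Bmp5 -0.44 ± 0.33 (adjusted p 0.559). Without TAI/IVIg mouse 3, Grem1 was at -0.53, Pdgfra at -0.51 and Rspo3 at -0.10, and without TAI/IVIg mouse 1, Grem1 was at -1.78 and Rspo3 at -0.71.

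The 10 genes followed the mouse as well as the group. Control mouse 2 was the highest control for 8 of the 10, TAI mouse 2 the highest TAI mouse for 9, and TAI/IVIg mouse 1 the highest TAI/IVIg mouse for 8. The lowest were control mouse 3 for 6, TAI mouse 3 for 8 and TAI/IVIg mouse 3 for 6. The 4 genes not lowest in TAI/IVIg mouse 3 were Wnt5a and Bmp4, lowest in mouse 2, and Wnt2b and Wnt4, lowest in mouse 1, and Wnt4 had its highest TAI/IVIg value (1.89 FPKM) in mouse 3. By the root mean square difference of their centred log2 levels over the 9 mice, Bmp5 and Pdgfra were the closest pair (0.202), followed by Bmp4 and Bmp5 (0.223), and Grem1 and Wnt4 the furthest apart (0.966).

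Markers of the stroma moved with these genes. The summed level of the fibroblast markers (16 genes, 14 tested, none at 0 in any mouse, led by Fbln1, Col6a1 and Dcn) was 120 to 177 FPKM in control, 184 to 229 in TAI and 121 to 162 in TAI/IVIg mice. Much of these sums after irradiation was Fbln1. Without Fbln1 the other 15 genes summed to 112 to 165 FPKM in control, 135 to 171 in TAI, which overlapped control, and 41.2 to 104 in TAI/IVIg mice, all of which lay below every control. That of the smooth muscle markers (10 genes, all tested, none at 0) was 580 to 726, 608 to 876 and 140 to 623 FPKM. Pericyte markers (6 genes, 4 tested, 1 gene at 0 in a control mouse, led by Rgs5, Kcnj8 and Abcc9) summed to 62.6 to 75.8, 107 to 138 and 28.6 to 115 FPKM. In each of these lists TAI/IVIg mouse 3 was the lowest of the 9 by the mean of the log2 levels. The median log2 fold change of TAI/IVIg against TAI was -0.86 for the fibroblast list and -1.06 for the muscle list, against 0.09 for the epithelial list. Without TAI/IVIg mouse 3 the first 2 medians were -0.62 and -0.55, and without TAI/IVIg mouse 1 they were -1.11 and -1.33. The part of the stromal share in the values of the 10 genes was not tested beyond the comparison with the fibroblast list given next.

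**Figure D3:**
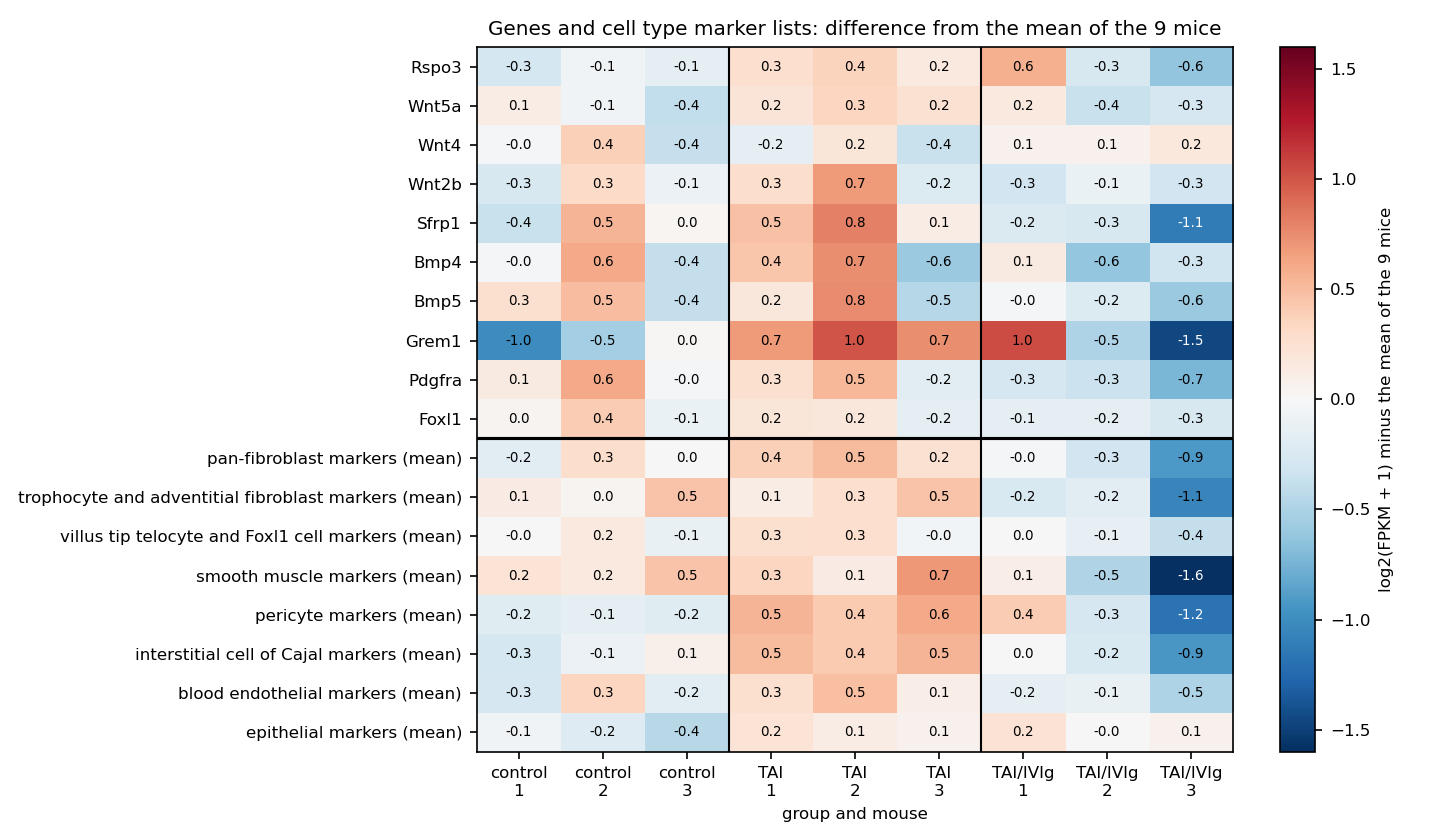
Difference from the mean of the 9 mice, on log2(FPKM + 1), for the 10 genes (upper rows) and for the mean of 8 marker lists (lower rows), with mice in columns. TAI/IVIg mouse 3 is low for Sfrp1, Grem1 and Pdgfra and for the fibroblast, smooth muscle and pericyte lists, while Wnt4 and the epithelial list are not low there.

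Each gene was then expressed relative to the fibroblast list, as its log2(FPKM + 1) minus the mean of the list in the same mouse. With 3 against 3 mice, no exact permutation p can be below 0.1. The share of all tested genes without overlap on this scale was not worked out. Grem1 was higher in TAI on this scale too. It lay 1.34, 1.34 and 2.18 above the list in the control mice and 2.46, 2.66 and 2.66 above it in the TAI mice. The groups did not overlap, and the difference was 0.98 (two-sided exact permutation p = 0.1). It was 1.20 against the smooth muscle list, again without overlap. Pdgfra lay 0.17, 0.17 and -0.19 from the list in control and -0.39, -0.20 and 0.04 in TAI/IVIg mice, which overlapped, and the difference was -0.23 (exact permutation p = 0.2).

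Relative to the list, Wnt4 was -2.26, -2.03 and -2.32 in TAI and -1.62, -1.35 and -0.63 in TAI/IVIg mice. The groups did not overlap, with a difference of 1.01 (exact permutation p = 0.1). Rspo3 was higher by 0.43 and Foxl1 by 0.53 in TAI/IVIg than in TAI, also without overlap. Over all genes tested the median difference on this scale was 0.67, above those of Rspo3 and Foxl1 and below that of Wnt4. The log2(FPKM + 1) scale compresses the changes of genes with levels as low as those of Wnt4, Rspo3 and Foxl1. With a pseudocount of 0.1, Wnt4 alone of the 3 stayed without overlap, and against the smooth muscle list none did. Foxl1 was lower by 0.38 in TAI than in control without overlap, and this too was lost in both of those settings. The median over all genes tested was lower still in that comparison, at -0.58. In TAI/IVIg against control, Rspo3 was higher by 0.51 without overlap (exact permutation p = 0.1), beside a median of 0.06 over all genes. It stayed without overlap in both of those settings (0.58 and 0.99). Its unscaled levels overlapped between these groups, on 26 to 137 reads in a TAI/IVIg library.

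Fbln1, an extracellular matrix gene of the fibroblast list, was the only one of its list called higher in TAI, and again in TAI/IVIg, going from 8.73 ± 3.31 FPKM in control to 55.3 ± 5.18 in TAI and 68.9 ± 10.9 in TAI/IVIg mice (SD, n = 3 each). With Fbln1 left out of the list, a choice made after seeing the data, Grem1 was higher by 1.15 and Rspo3 by 0.26 in TAI than in control, both without overlap, while Foxl1 then overlapped.

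**Figure D4:**
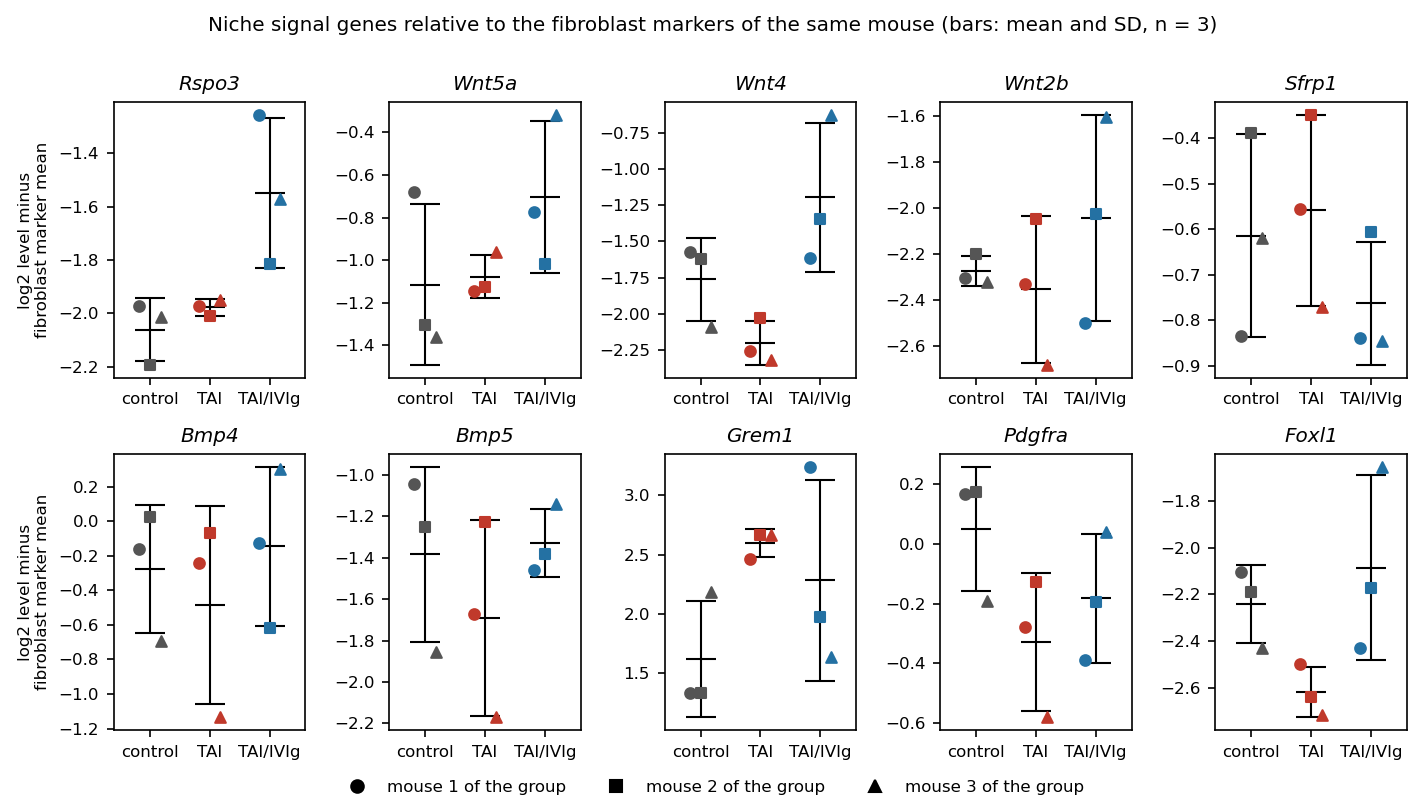
Level of each gene relative to the fibroblast markers of the same mouse (vertical axes, log2 units, a scale for each panel) in the 3 groups. Points are mice, and bars give the mean and SD of 3 mice. Grem1 lies higher in every TAI mouse than in every control, and Wnt4 higher in every TAI/IVIg mouse than in every TAI mouse, while the Pdgfra values of TAI/IVIg and control mice overlap.

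The genes whose pattern over the 9 mice was most like that of each of the 10 were listed for those with enough spread to tell. For Sfrp1 they were Col1a1, a fibrillar collagen of fibroblasts (root mean square difference 0.086 on the log2 scale), Fam129b (0.129) and Hspg2 (0.179). For Pdgfra they were Tmem176a (0.092), Tmem176b (0.095) and Ptges (0.098). For Bmp5 they were Zmynd15 (0.13), C3ar1 (0.142) and Lamb1 (0.177), and for Bmp4 C6 (0.193), Tcf21 (0.195) and Zmynd15 (0.197). Those of Rspo3 were Olfml2b (0.09), Nfatc4 (0.093) and Gm13889 (0.106), and those of Wnt2b were Ptk7 (0.109), Efna4 (0.127) and Tbc1d2 (0.131). For Grem1 they were Gem (0.23), Itga5 (0.232) and Ctps (0.242). The differences are not scaled to the spread of a gene. Grem1 had the largest SD, 0.918 against 0.346 to 0.579 for the others listed. Its larger differences therefore do not show a more distinct pattern. Wnt5a and Wnt4 varied too little for such a list.

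The other genes of the Wnt, R-spondin, BMP and Hedgehog pathways were taken from lists of 114 genes, of which 112 were in the table and 52 were tested. Of these, 9 were called higher and 6 lower in TAI, and 7 higher and 14 lower in TAI/IVIg, each against control. Over all genes tested the shares called were 8.81% higher and 26.1% lower in TAI and 9.06% and 37.4% in TAI/IVIg. None was called in TAI/IVIg against TAI, where 3 higher and 11 lower ones had an unadjusted p under 0.05. Their median log2 fold change was 0.21 in TAI and -0.26 in TAI/IVIg. The calls of higher genes held with the library medians set equal, 9 of 9 and 7 of 7, but of the lower ones 2 of 6 (Fzd5 and Bmp3) and 2 of 14 (Bmp3 and Id4) were then called. With the fibroblast markers set equal, 3 of the 9 higher calls in TAI were made (Bmp8a, Bmp8b and Smad4), 6 of 6 lower ones in TAI, 7 of 7 higher ones in TAI/IVIg and 1 of 14 lower ones in TAI/IVIg (Bmp3).

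Among the BMP ligands the stromal Bmp4 and Bmp5 were not called, but 3 of 8 tested genes were, in both irradiated groups, 2 higher and 1 lower. Among all tested genes 8.81% and 9.06% were called higher and 26.1% and 37.4% lower in the 2 groups, so 3 of 8 is near the share of the whole table. Bmp8a went from 0.215, 0.424 and 0.312 FPKM in control to 5.68, 3.86 and 4.17 in TAI and 6.47, 4.82 and 5.33 in TAI/IVIg mice. No irradiated mouse was near a control, and the log2 fold changes were 2.07 (adjusted p 0.000257) and 2.31 (adjusted p 9.78e-05). Bmp8b rose by 1.43 and 1.13 on the log2 scale (adjusted p 0.00291 and 0.00482). Bmp8a and Bmp8b are close copies, so how reads were shared between them is uncertain. Bmp3, a BMP that counters others, went from 4.71, 4.87 and 6.85 FPKM in control to 0.844, 0.672 and 0.526 in TAI and 0.346, 0.4296 and 0.0806 in TAI/IVIg mice, and its fold changes were -1.93 (adjusted p 0.000362) and -2.33 (adjusted p 0.000133). In TAI/IVIg against TAI, Bmp8a was at 0.24 (adjusted p 0.528) and Bmp3 at -0.39 (adjusted p 0.393), neither called.

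Of the 8 BMP antagonists tested, none was called higher, and Grem1 was the one at an unadjusted p under 0.05 in TAI. Fst (follistatin) fell by 0.97 in TAI (adjusted p 0.0237) and by 1.22 in TAI/IVIg (adjusted p 0.00685). Smoc1 (-0.91, adjusted p 0.0253) and Twsg1 (-0.48, adjusted p 0.0351, but 0.02 with the library medians set equal) fell in TAI/IVIg against control. None of these falls of Fst, Smoc1 and Twsg1 was called with the library medians set equal. In TAI/IVIg against TAI all 8 had a negative fold change, led by Chrdl1 at -0.76 (adjusted p 0.353), and none was called. Their median was -0.56, beside -0.13 over all genes. The part of the stromal share in this was not tested.

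Of the BMP receptors and Smads, 3 of 7 were called higher in TAI: Smad4 (1.35, adjusted p 0.00183), Bmpr2 (0.68, adjusted p 0.012) and Smad5 (0.41, adjusted p 0.0472), where 8.81% of all genes were called higher. Bmpr2 (adjusted p 0.362) and Smad5 (adjusted p 0.868) were not called with the fibroblast markers set equal. In TAI/IVIg against control Smad4 rose by 1.24 (adjusted p 0.00165) and Bmpr1a fell by 0.34 (adjusted p 0.0382, but with a fold change of 0.15 with the library medians set equal). Of 6 BMP target genes, Smad7, an inhibitory Smad, was called higher in TAI (0.74, adjusted p 0.0316) and in TAI/IVIg (0.96, adjusted p 0.00846), the first not with the fibroblast markers set equal (adjusted p 0.31). Id3 fell by 0.81 and 0.44 (adjusted p 0.00273 and 0.0221, the second turning to 0.05 with the library medians set equal), and Id4 fell by 0.70 and 1.20 (adjusted p 0.0369 and 0.00296). The falls of Id3 (adjusted p 0.083) and Id4 (0.182) in TAI were not called with the library medians set equal. The called targets did not share a direction. In TAI/IVIg against TAI none was called. Id3 was at 0.37 there (adjusted p 0.359), Id4 at -0.50 (0.382), Acvr2a at 0.10 (0.744) and Bmpr2 at -0.26 (0.486).

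On the Wnt side, none of the 2 tested R-spondin receptors and E3 ligases and none of the 3 tested Wnt inhibitors was called in any comparison. Of the 9 tested Wnt receptors, Fzd4 was called higher in TAI (0.72, adjusted p 0.019) and in TAI/IVIg (0.70, adjusted p 0.0165), and Fzd5 lower in both (-0.97, adjusted p 0.00143, and -0.86, adjusted p 0.00142). Fzd7 (-0.71, adjusted p 0.014), Fzd1 (-0.58, adjusted p 0.025) and Fzd2 (-0.51) were also called lower in TAI/IVIg against control. Lower calls there were thus 4 of 9, where 37.4% of all genes were called lower. In TAI/IVIg against TAI, Fzd1 was at -0.85 (adjusted p 0.353) and Dkk3, a secreted inhibitor, at -0.67 (adjusted p 0.382), neither of them called. There Fzd5 was at 0.11 (adjusted p 0.709) and Lgr4, an R-spondin receptor, at -0.18 (adjusted p 0.603). Of the 9 tested Wnt target genes, Axin2, a feedback inhibitor, rose by 0.81 in TAI (adjusted p 0.0108) and by 1.02 in TAI/IVIg (adjusted p 0.00282). Sox9 rose by 1.08 in TAI (adjusted p 0.0463), and Sp5 by 1.21 in TAI/IVIg (adjusted p 0.00519), where Ccnd1 (-1.41, adjusted p 0.0193) and Ephb2 (-0.88, adjusted p 0.0426) fell. In TAI/IVIg against TAI, Sp5 was at 0.58 (adjusted p 0.382) and Nkd1 at -0.80 (adjusted p 0.353), neither called. The TAI calls of Fzd4 (adjusted p 0.345), Axin2 (0.272) and Sox9 (0.113) were lost with the fibroblast markers set equal. The lower calls of Fzd5, Fzd7, Fzd1, Fzd2, Ccnd1 and Ephb2 in TAI/IVIg against control were lost with the library medians set equal.

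Hedgehog proteins from the epithelium act on the stroma that makes these signals. Of 4 genes tested, Ihh fell by 0.66 in TAI (adjusted p 0.0265), and Ptch1, the receptor and a target, fell by 0.58 in TAI/IVIg against control (adjusted p 0.0253). Neither was called with the library medians set equal (adjusted p 0.256 and 0.602). In TAI/IVIg against TAI, Ihh was at 0.44 (adjusted p 0.382) and Smo at -0.53 (adjusted p 0.353), neither called. Of 11 tested markers of villus tip telocytes and Foxl1 cells, Dll1 was called higher and Bmp3 lower in TAI, and 3 higher, Dll1 and Edn3 among them, and Bmp3 lower in TAI/IVIg, each against control. Over all genes tested 8.81% were called higher and 26.1% lower in TAI, and 9.06% and 37.4% in TAI/IVIg. Dll1 is also made by secretory cells of the epithelium. Edn3 was 23.1, 23.3 and 23.6 FPKM in the TAI/IVIg mice, so it was not low in mouse 3, where the fibroblast list was. The cells behind these marker values were not tested.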

How the data were processed

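RNA-seq values of jejunum from 9 mice were used, 3 for each treatment. The labels gave the group and number of each mouse, and labels and methods of the study the doses and times. The authors deposited FPKM values for 31685 genes. The submitters' processing notes name FastQC, Trimmomatic, STAR and featureCounts and the build mm10 (GRCm38). Versions and the strand setting of the counting are not given in the sources used here. All values (100%) came out as whole multiples of what 1 read is worth (within 0.01 read), which gave the reads per gene and library, and the exon lengths behind them matched GENCODE vM21 within 1 base for 30615 of 31146 genes, so its GRCm38 coordinates are given. Promoter windows are from RefSeq (GRCm38.p6).

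Genes with at least 1 FPKM in at least 3 mice (13056) were fitted with limma 3.58.1 in R 4.3.3 on log2(FPKM + 1), with a term per group, trended empirical Bayes and Benjamini-Hochberg adjustment over all of them, and called at an adjusted p under 0.05. The script was tested on simulated data. Levels relative to fibroblast markers were compared with two-sided exact permutation tests (SciPy 1.17.1). The 10 genes and all lists were chosen with earlier results of these data known. Named pathway genes are up to 3 per list and direction with the smallest unadjusted p among those called, or 1 per direction in TAI/IVIg against TAI. Fzd2 is named besides, to complete its list. Named markers are the 3 of highest mean FPKM per list. For genes of like pattern, the 3 nearest are named where the SD of the gene was at least 0.3. Wnt3a and Msx2 were not analysed here.

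The labels do not say whether mice that share a replicate number belong together. This was checked by correlating how far each mouse lay from the mean of its group over the tested genes. For controls and TAI mice numbered alike the values were 0.271, 0.241 and 0.308, and for those numbered differently they ran from -0.336 to 0.146. For TAI/IVIg mice against mice of like number in either group they ran from -0.296 to 0.201. TAI/IVIg mouse 2 and control mouse 3, which share no number, reached 0.408. Such values thus occur without a shared number, and the check does not establish pairs. Mice of like number were set against each other for the Grem1 to Bmp4 ratio, beside the test without pairing. A fit with a replicate block was run as an alternative.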

Additional observations from a re-analysis of the deposited data

How the results depend on the processing

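Only Pdgfra in TAI/IVIg against control was called, and that count of 1 lower gene became 0 with no filter, with equal library medians, after quantile normalization, with the fibroblast markers set equal and with voom at median-ratio library sizes. In TAI against control the count of 0 higher genes became 1 with equal library medians, after quantile normalization and with the 6 mice compared (Grem1 in each), and with voom at median-ratio sizes (Wnt5a). Leaving out each mouse in turn gave 0 to 1 in both. The causes were not tested beyond what each setting changes.

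Of the 52 other pathway genes tested, 9 were higher and 6 lower in TAI and 7 higher and 14 lower in TAI/IVIg, against control. Equal library medians gave 21, 2, 13 and 2, quantile normalization 15, 3, 13 and 3, voom at median-ratio sizes 16, 2, 13 and 2, and a mean of at least 5 FPKM 3, 3, 3 and 5. With the fibroblast markers set equal the first was 3 and the last 1, with no filter the second was 3 and the last 9, and with the 6 mice compared the last was 6. Leaving out each mouse gave 5 to 9, 2 to 7, 6 to 8 and 5 to 14.

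Signs of uncalled fold changes turned as follows. In TAI against control, Wnt4 was 0.19 and Pdgfra 0.25 with equal library medians, 0.0055 and 0.26 with quantile normalization, and 0.15 and 0.25 with voom at median-ratio sizes. With the fibroblast markers set equal, Wnt2b was -0.0781, Bmp4 -0.21 and Bmp5 -0.31. In TAI/IVIg against control, Wnt5a, Wnt2b, Bmp4 and Bmp5 were 0.45, 0.27, 0.16 and 0.0886 with equal library medians, 0.42, 0.0951, 0.15 and 0.0203 with quantile normalization, and 0.41, 0.23, 0.13 and 0.0549 with the fibroblast markers set equal. Wnt5a was 0.43 and Bmp4 0.0956 with voom at median-ratio sizes, and Rspo3 was -0.0041 with a pseudocount of 0.1 and -0.0164 with voom at total sizes. In TAI/IVIg against TAI, setting the fibroblast markers equal gave 0.43 for Rspo3, 0.38 for Wnt5a, 0.31 for Wnt2b, 0.34 for Bmp4, 0.36 for Bmp5 and 0.15 for Pdgfra. With that setting the median over all genes was -0.58 in TAI against control, 0.06 in TAI/IVIg against control and 0.67 in TAI/IVIg against TAI. Leaving out each mouse gave, in TAI against control, -0.28 to 0.0924 for Wnt4, -0.14 to 0.53 for Bmp4, -0.26 to 0.34 for Bmp5 and -0.20 to 0.15 for Pdgfra. In TAI/IVIg against control it gave -0.28 to 0.32 for Rspo3, -0.46 to 0.78 for Grem1, -0.20 to 0.0677 for Wnt5a and -0.0742 to 0.30 for Wnt4.

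Relative to the fibroblast list, 1 gene was higher and 1 lower without overlap in TAI against control, 1 higher and 0 lower in TAI/IVIg against control, and 3 higher and 0 lower in TAI/IVIg against TAI. The median over all genes tested on this scale was -0.58, 0.06 and 0.67 in these comparisons. The share of all genes without overlap was not worked out on it, so these counts cannot be set against the whole table. With a pseudocount of 0.1, TAI against control had 2 higher and 0 lower and TAI/IVIg against TAI 1 higher. With the smooth muscle list, 0 were lower in TAI against control, 3 higher in TAI/IVIg against control and 0 higher in TAI/IVIg against TAI. With Fbln1 left out of the list, chosen after seeing the data, TAI against control had 2 higher and 0 lower and TAI/IVIg against control 2 higher. Leaving out each mouse gave 1 to 3, 1 to 4, 1 to 3, 0 to 1, 3 to 4 and 0 to 1.

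With the replicate block, the counts of called genes among the 9 were the same (0 in TAI against control, 1 lower in TAI/IVIg against control), Grem1 in TAI against control had an adjusted p of 0.124 by limma, and the block changed no call among the 9. The pathway counts were then 9, 7, 7 and 13. In the pairing check, only control and TAI mice of like number had positive correlations throughout, which does not establish that they are pairs. With 19 to 60 reads a library for Foxl1 and 26 to 137 for Rspo3, only large differences in these could be seen.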
